A study of Mus musculus with 4 samples.

Results

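The 36 genes described here mark cells in the cell cycle. They were 36 of the 21027 genes present in both tables of a single-cell RNA sequencing study of group 3 innate lymphoid cells (ILC3s), and all 36 were found. They comprised 20 genes of G2 phase and mitosis (G2/M), 12 genes of DNA replication in S phase, and 4 genes shared by both phases, Cks1b, Cks2, Hmgb2 and Stmn1. The cells had been sorted from the lamina propria of the small intestine of mice aged 6 to 8 weeks that were Cxxc1flox/flox and carried cre, and captured on the BD Rhapsody system. In this strain Cre deletes Cxxc1, the gene of a protein that binds unmethylated CpG DNA. The 4 samples were 2 replicates with 2 libraries each and formed 1 group, so no control mice were compared. The labels call the ILC3s Cxxc1-deficient, and which other cell classes carried the deletion was not tested. A difference between classes therefore cannot be told apart from a deletion in only some of them. Replicate 1 was sample tag 4 of a capture with 8064 cells and replicate 2 was sample tag 2 of a capture with 15793 cells. Nothing in the labels states whether these replicates came from separate animals. A p-value here therefore reflects only the scatter between the pair of replicates, which may be technical.

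A cell that divides copies its DNA in S phase and separates the copies in mitosis. Cyclins A and B with Cdk1 drive entry into mitosis, the aurora and polo kinases build and control the spindle, and Cdc20 and Ube2c act in the destruction of the cyclins at its end. Transcription of the S phase genes is switched on by E2F factors at the start of replication, and that of the G2/M genes follows later through the MuvB complex. Innate lymphoid cells that reside in tissues are known to divide slowly at rest, while plasmablasts, the precursors of plasma cells, divide before they leave the cycle.

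Promoter sequences were found for 30 of the 36 members in RefSeq (GRCm38.p6), each running from 250 bases before to 50 bases after a gene's start. Those of 4 G2/M and 2 S phase members are printed to show the motifs known from genes of each phase. The CHR element was searched as TTTGAA or TTTAAA, the CCAAT box as CCAAT, and the E2F site as TTTGGCGC, TTTCGCGC, TTTCCCGC or TTTGCCGC, on both strands, counting matches that overlap. Capitals mark the matches, and a match on the other strand appears as its reverse complement. A match is a description of the letters and does not show that a factor binds there.
Mki67, chr7:135716330-135716629, minus strand: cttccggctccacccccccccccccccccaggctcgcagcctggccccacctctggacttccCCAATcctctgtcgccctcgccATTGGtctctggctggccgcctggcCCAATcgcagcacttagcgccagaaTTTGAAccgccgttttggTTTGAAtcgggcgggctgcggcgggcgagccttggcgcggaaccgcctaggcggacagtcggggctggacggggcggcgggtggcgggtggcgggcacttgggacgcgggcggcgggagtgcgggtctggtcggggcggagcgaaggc
Ube2c, chr2:164769679-164769978, plus strand: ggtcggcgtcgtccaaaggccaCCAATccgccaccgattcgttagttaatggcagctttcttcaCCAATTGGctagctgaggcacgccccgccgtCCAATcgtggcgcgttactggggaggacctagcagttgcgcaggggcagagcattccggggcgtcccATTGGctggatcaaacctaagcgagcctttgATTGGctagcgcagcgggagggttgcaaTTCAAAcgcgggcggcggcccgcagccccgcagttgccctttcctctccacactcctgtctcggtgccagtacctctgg
Cdk1, chr10:69352863-69353162, minus strand: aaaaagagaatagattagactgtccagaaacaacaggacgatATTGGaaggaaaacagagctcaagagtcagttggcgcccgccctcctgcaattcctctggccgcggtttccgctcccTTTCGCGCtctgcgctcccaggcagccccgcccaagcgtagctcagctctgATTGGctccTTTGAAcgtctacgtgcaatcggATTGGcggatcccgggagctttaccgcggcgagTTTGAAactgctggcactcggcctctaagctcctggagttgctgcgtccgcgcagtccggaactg
Ccnb1, chr13:100786437-100786736, minus strand: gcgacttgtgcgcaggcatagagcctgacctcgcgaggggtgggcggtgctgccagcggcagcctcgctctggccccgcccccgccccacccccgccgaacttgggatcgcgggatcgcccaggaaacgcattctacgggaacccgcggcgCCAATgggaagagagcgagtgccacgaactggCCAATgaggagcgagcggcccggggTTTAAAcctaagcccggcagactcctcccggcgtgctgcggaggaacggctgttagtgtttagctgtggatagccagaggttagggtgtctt
Rrm2, chr12:24708004-24708303, plus strand: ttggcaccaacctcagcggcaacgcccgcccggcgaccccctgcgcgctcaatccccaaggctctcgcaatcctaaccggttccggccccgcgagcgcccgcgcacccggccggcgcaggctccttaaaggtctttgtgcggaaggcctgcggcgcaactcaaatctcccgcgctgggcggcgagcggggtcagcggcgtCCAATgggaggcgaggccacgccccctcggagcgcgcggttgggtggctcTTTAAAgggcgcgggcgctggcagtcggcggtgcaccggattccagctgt
Mcm6, chr1:128359656-128359955, minus strand: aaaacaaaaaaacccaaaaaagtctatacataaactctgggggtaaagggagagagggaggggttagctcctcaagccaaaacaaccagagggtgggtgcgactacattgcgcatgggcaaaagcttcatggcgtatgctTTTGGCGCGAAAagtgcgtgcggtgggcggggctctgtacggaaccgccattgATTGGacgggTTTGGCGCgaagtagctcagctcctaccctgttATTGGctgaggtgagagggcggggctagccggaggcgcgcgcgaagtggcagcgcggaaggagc
A CHR match stood in 14 of 16 G2/M promoters and in 5 of 11 S phase promoters, against 27.8% of the 27025 promoters in RefSeq. The CCAAT box stood in 14 of 16 G2/M promoters, 9 of 11 S phase promoters and 37.9% of all promoters. An E2F match stood in 1 of 16 G2/M promoters, that of Cdk1, in 5 of 11 S phase promoters and in 2.32% of all promoters. Of the 3 shared members with a promoter, 2 had a CHR match, 3 a CCAAT box and 0 an E2F match. The promoter of Rrm2, which encodes the small subunit of ribonucleotide reductase, had the CHR and CCAAT motifs and no E2F match. That of Mcm6, which encodes a subunit of the replicative helicase, had CCAAT and E2F matches and no CHR match.

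After filtering, 1906 cells of replicate 1 and 4179 cells of replicate 2 were kept, with medians of 4200 and 2364 unique molecular identifiers (UMIs, counted molecules) per cell. The captures shared 135 cell indices, 7 of them among the cells with the tags used. Cells were put in classes by marker genes, none of which is a member. The ILC3 gate asked for 2 or more of 9 markers such as Il23r, Il1r1 and Il22 with no CD3 or Trac UMI. The gates of T cells, plasma cells, stromal cells and myeloid cells (macrophages or dendritic cells) used their own markers, and a cell that passed the gates of more than 1 lineage was left out as mixed. The 5 lineage classes then held 986 and 3141 cells, and 768 cells (40.3%) of replicate 1 and 363 cells (8.69%) of replicate 2 were mixed. Although the labels call the cells ILC3s, the ILC3 gate held 333 and 1166 cells. In these cells Cxxc1 stood at 46.2 and 44.8 UMIs per 1000000 UMIs of the class (CPM), against 93.4 and 75.4 in T cells. A tag at the 3' end can lie outside the deleted part of the gene, so this level does not check the deletion.

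The 768 mixed cells had a median of 8050.5 UMIs, and 168 of them met the definition of a cycling cell given below. A second gate was therefore added after the data had been seen. It asked stromal cells for at least 100 stromal marker UMIs per 10000 and plasma cells for at least 10% immunoglobulin UMIs, so that a few marker UMIs did not move a cell into another lineage. Under this level gate 222 and 187 cells remained mixed. Of the 768 mixed cells, 275 became plasma cells, 154 ILC3s, 69 T cells and 37 myeloid cells. Values of the marker gate come first, and those of the level gate follow where they are given.

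A cell was called cycling when it held 3 or more UMIs of the 20 G2/M members. By this definition 240 of all kept cells of replicate 1 (12.6%) and 109 of replicate 2 (2.61%) were cycling. The share was above that of stromal cells in each of the other 4 lineages and in both replicates. With 2 replicates, an exact permutation test of 2 values against 2 cannot give a p-value below 1 in 3, so the shares are described with exact Clopper-Pearson 95% intervals, which cover counting error only. Cells are not replicates of a condition. The interval of ILC3s overlapped the range that the counts allow for stromal cells in both replicates. In replicate 2 the plasma and myeloid classes held only 1 and 2 cycling cells.

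Among ILC3s, 16 of 333 cells of replicate 1 were cycling (4.80%, interval 2.77 to 7.69) and 16 of 1166 cells of replicate 2 (1.37%, interval 0.786 to 2.22). Among T cells the share was 8.53% in replicate 1 (18 of 211 cells, interval 5.13 to 13.1) and 3.61% in replicate 2 (64 of 1773 cells, interval 2.79 to 4.59). T cells stood above ILC3s in both replicates, with intervals that overlapped in replicate 1 and not in replicate 2. The median depth of T cells was lower than that of ILC3s in both replicates, at 2686 against 3425 and 2107 against 2807.5 UMIs per cell. The level gate gave 5.95% and 1.38% for ILC3s and 10% and 3.53% for T cells.

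Plasma cells, which secrete antibody and no longer divide once mature, had a cycling share of 19.2% in replicate 1 (14 of 73 cells, interval 10.9 to 30.1). In replicate 2 the gate held 17 cells, of which 1 was cycling (5.88%, interval 0.149 to 28.7). The level gate raised the number of plasma cells in replicate 1 to 348, of which 90 were cycling (25.9%, interval 21.3 to 30.8). In replicate 2 it gave 1 of 19 cells (5.26%). The plasma class thus held the most cycling cells of replicate 1 under the level gate, and replicate 2 held too few plasma cells to set a share against it.

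Myeloid cells had a share of 24.2% in replicate 1 (8 of 33 cells, interval 11.1 to 42.3) and 8.00% in replicate 2 (2 of 25 cells, interval 0.984 to 26.0). The level gate gave 27.1% (19 of 70 cells) and 7.14% (2 of 28 cells). Stromal cells, taken to be mostly resting in the adult gut, were chosen as the reference for UMIs from free RNA. How much of their G2/M signal was free RNA was not tested. Their share was 2.68% in replicate 1 (9 of 336 cells, interval 1.23 to 5.02) and 0 of 160 cells in replicate 2, which allows a share of up to 1.88%. Their median depths were 5183 and 4368 UMIs per cell, above those of ILC3s and T cells. The 9 cycling stromal cells of replicate 1 had a median of 25.8% immunoglobulin UMIs, against 0.404% in the other stromal cells, and 415 against 798 stromal marker UMIs per 10000. Under the level gate, 1 of 219 stromal cells of replicate 1 was cycling (0.457%) and 0 of 125 in replicate 2, which allows up to 2.40%.

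**Figure D1:**
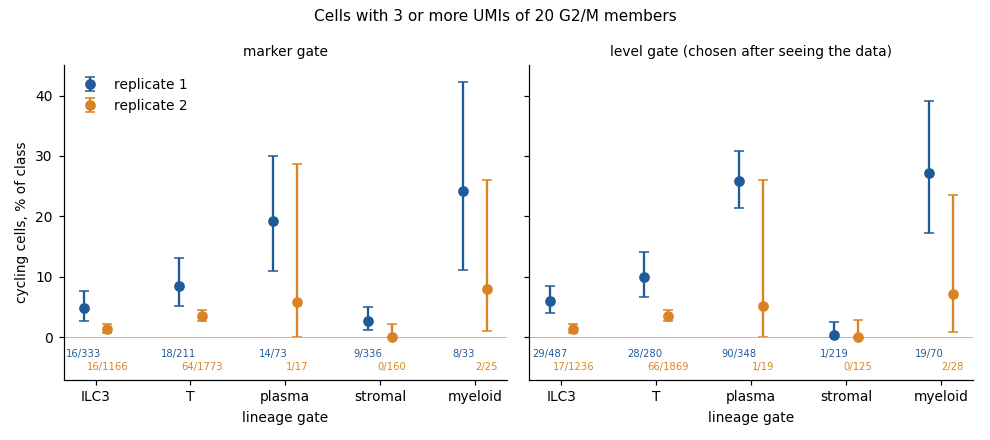
Share of cycling cells in percent (vertical axis) in each lineage class (horizontal axis), by the marker gate and by the level gate; points are the replicates and bars the exact 95% intervals. Replicate 1 lies above replicate 2 in every class, and plasma and myeloid cells of replicate 1 lie highest, at 19.2% and 24.2% by the marker gate.

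Depth and the marker choice moved these shares. When each cell was thinned to 1500 UMIs, the shares of ILC3s became 2.13% and 0.650% and those of T cells 3.40% and 2.13%, so T cells still stood above ILC3s in both replicates. In the same cells at full depth they had been 4.56% and 1.49% for ILC3s and 8.74% and 4.27% for T cells. Thinning kept 329 of 333 and 1077 of 1166 ILC3s and 206 of 211 and 1499 of 1773 T cells, the others being shallower. Plasma cells of replicate 1 kept 13.9%, while the thinned share of myeloid cells of replicate 1 was 3.03%. In the myeloid class Mki67 supplied 64.9% and 53.6% of the G2/M UMIs by the marker gate, against 20.6% and 18.99% in ILC3s. By the level gate it supplied 30.3% and 56.7% in the myeloid class. Without Mki67 the marker gate gave shares of 6.06% and 4.00% for myeloid cells, and 15.1% and 5.88% for plasma cells.

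Cycling cells differed in how far they passed the threshold. In ILC3s of replicate 1, 12 cells held 2 G2/M UMIs, 6 held 3 and 6 held 10 or more. In replicate 2, 28 ILC3s held 2, 4 held 3 and 4 held 10 or more. In T cells 13 and 54 cells held 2 and 6 and 30 held 3. Of the cycling plasma cells of replicate 1, 10 of 14 held 10 or more, and 71 of 90 by the level gate. Of the 9 cycling stromal cells of replicate 1, 6 held 10 or more. The median in cycling cells of replicate 1 by the marker gate was 16 G2/M UMIs in plasma cells, 12 in stromal cells, 4.5 in ILC3s and 5 in T cells. By the level gate it was 46 in plasma cells and 5 in both ILC3s and T cells.

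A few cells carried much of the signal of a class. In replicate 1, 1 ILC3 with 157 G2/M UMIs held 33.3% of the G2/M UMIs of its class and 1 T cell with 149 held 38.8%. In replicate 2 the highest ILC3 held 15.4% and the highest T cell 9.12%. Cycling ILC3s were 4.80% and 1.37% of the class and held 84.5% and 51.9% of its G2/M UMIs. Cycling T cells held 82.8% and 69.7%, and cycling plasma cells 94% and 78.6%.

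Within ILC3s, 3 subsets were gated by Ncr1, the gene of the receptor NKp46, and Ccr6, a chemokine receptor of lymphoid tissue inducer cells. Of the Ncr1-gated cells 5 of 62 were cycling in replicate 1 (8.06%, interval 2.67 to 17.8) and 1 of 165 in replicate 2 (0.606%, interval 0.0153 to 3.33). Of the Ccr6-gated cells 3 of 28 were cycling (10.7%, interval 2.27 to 28.2) and 1 of 122 (0.820%, interval 0.0208 to 4.48). The remainder, with neither gene, had 8 of 243 cells (3.29%) and 14 of 875 cells (1.60%). The subsets with Ncr1 or Ccr6 stood above the remainder in replicate 1 and below it in replicate 2. Ccr6-gated cells stood above Ncr1-gated cells in both replicates, with intervals that overlapped, but in replicate 2 each held 1 cycling cell. The order and gaps in replicate 1 depended on the gate. There the summed G2/M level of the remainder was 181 CPM by the marker gate and 506 CPM by the level gate. That of Ncr1-gated cells was 882 and 707 CPM, and that of Ccr6-gated cells 955 and 627 CPM.

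Among the T cell subsets of replicate 2 with more than 50 cells, CD8 cells had the highest share, 6.42% (12 of 187 cells, interval 3.36 to 10.9). Gamma-delta T cells, without Cd4, Cd8 or Trac UMIs and with Trdc, had 4.21% (4 of 95 cells, interval 1.16 to 10.4). CD4 cells with an Ifng UMI had 8.62% and 3.79% (5 of 58 and 16 of 422 cells). CD4 cells with neither Ifng nor Il21 had 8.25% and 3.06% (8 of 97 and 20 of 653 cells). The intervals of these CD4 subsets overlapped in each replicate. In replicate 2 the interval of CD8 cells overlapped that of gamma-delta T cells and contained the share of CD4 cells with an Ifng UMI. CD4 cells with Il21 and no Ifng had 2 of 34 cycling cells in replicate 2 (5.88%) and 1 of 1 in replicate 1. Replicate 1 held 6 CD8 cells and 10 gamma-delta cells, of which 1 and 2 were cycling. The myeloid subsets were small, with 4 of 8 macrophages and 4 of 25 dendritic cells cycling in replicate 1, and 1 of 24 and 1 of 1 in replicate 2.

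**Figure D2:**
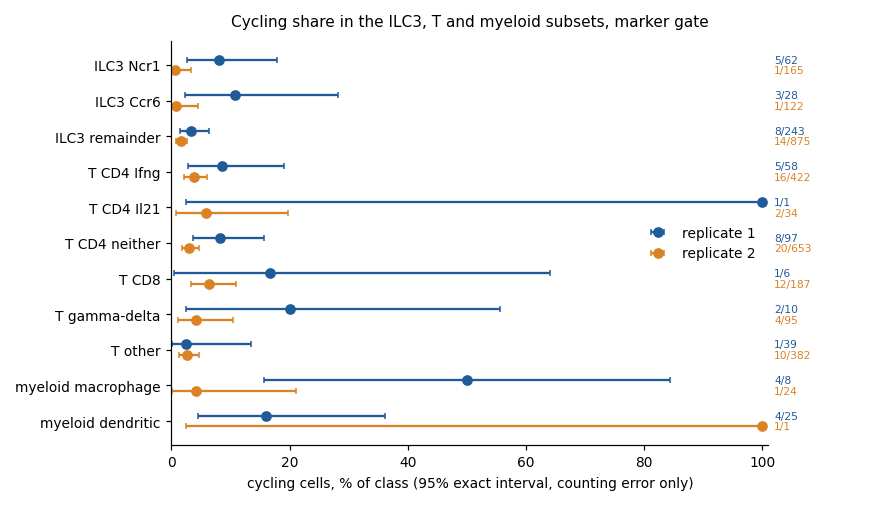
Share of cycling cells in percent (horizontal axis) in subsets of ILC3s, T cells and myeloid cells (vertical axis) by the marker gate; points are the replicates, bars the exact 95% intervals, and the counts are cycling cells of all cells. The remainder of ILC3s lies below both gated subsets in replicate 1 (3.29%) and above both in replicate 2 (1.60%).

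A member's level summed over a class reflects both the number of cycling cells and the RNA in each of them, and the sum cannot tell these apart. Summed over the 20 G2/M members, the level was 397 and 99.3 CPM in ILC3s, 598 and 281 in T cells, and 846 and 112 in plasma cells. Stromal cells stood at 81.7 and 12.5 CPM and myeloid cells at 434 and 276. Immunoglobulin transcripts took 52.0% and 54.8% of the UMIs of plasma cells, and without them the G2/M level of plasma cells was 1760 and 248 CPM. The S phase members summed to 541 and 387 CPM in ILC3s, 759 and 549 in T cells and 359 and 152 in plasma cells. In stromal cells the S phase members summed to 166 and 161 CPM, close to each other. The stromal G2/M sums of the replicates were not close by the marker gate. There, cycling cells held 66.3% of the stromal G2/M UMIs of replicate 1. By the level gate the stromal G2/M sums were 18.96 and 12.03 CPM, nearer to each other.

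**Figure D3:**
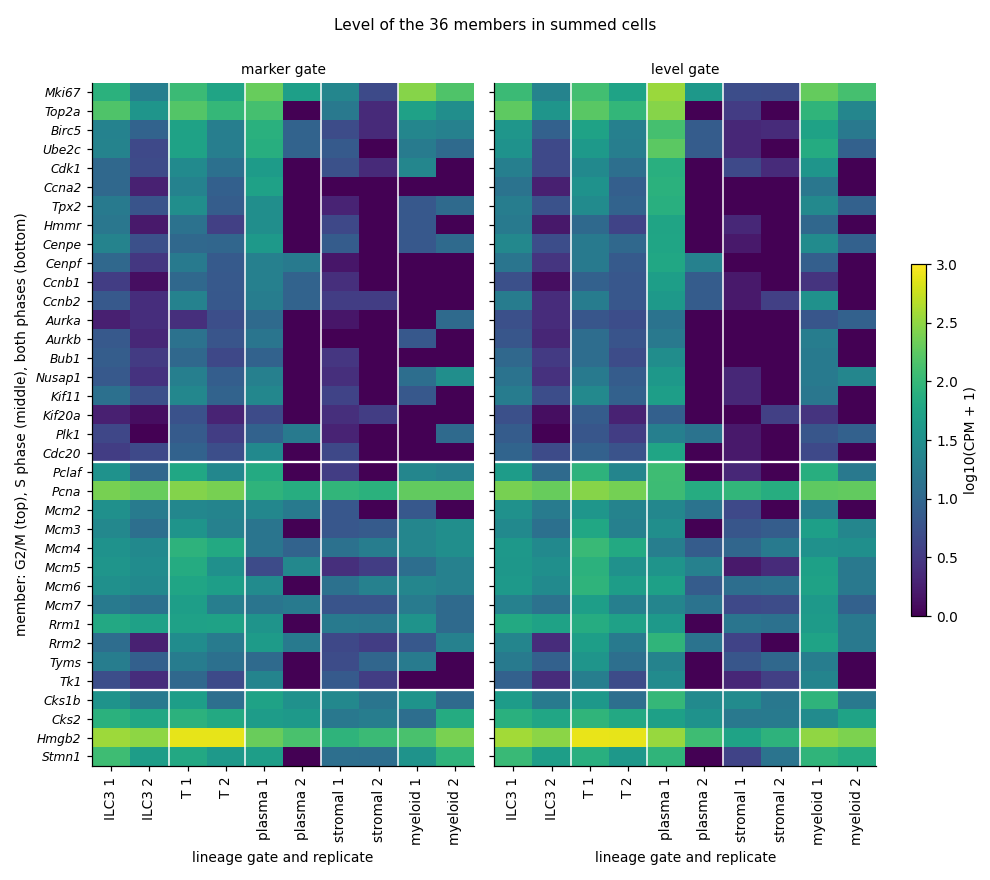
Level of each of the 36 members (vertical axis, by phase) in each lineage class and replicate (horizontal axis) by the marker gate and the level gate, as log10(CPM + 1) by colour. Pcna and Hmgb2 are seen in every class and replicate, at 72.1 CPM or more for Pcna by the marker gate, while most G2/M members are at or near 0 in stromal cells and in plasma cells of replicate 2.

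Each lineage was then compared with ILC3s over sums of UMIs per replicate and class, by edgeR's quasi-likelihood test with Benjamini-Hochberg adjustment over all 9353 genes that passed the low-count filter. The replicate was a block, since both classes of a replicate came from the same capture. Of the 36 members 28 passed the filter. Ccnb1, Aurka, Aurkb, Bub1, Kif20a, Plk1, Cdc20 and Tk1 did not and were not tested, although Ccnb1 reached 19.5 CPM and Cdc20 25.4 CPM in plasma cells of replicate 1, against 2.52 CPM each in ILC3s. The 4 contrasts share the ILC3 sums, so they are not independent of one another.

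Some members had higher levels in T cells than in ILC3s. Of the 28 members tested, 13 were higher (7 of 13 G2/M, 5 of 11 S phase and Hmgb2) and 0 lower, where 8.52% of all genes were higher, and 14 had an unadjusted p under 0.05. The median log2 fold change was 0.98 over the members tested and -0.00 over all genes. Each of the 13 was higher in both replicates. DESeq2 called 4 members higher, 3 of them S phase or shared, and 0 lower, where it called 491 of 9353 genes higher. Without the replicate block edgeR called 3 members higher, where 563 of 9353 genes were higher. The level gate had 10 of 34 members higher, where 7.23% of all genes were higher, and Ccnb2 was no longer among them. These were 3 of 18 G2/M members, 6 of 12 S phase members and 1 shared member. DESeq2 on the level gate called 3 higher, all of them S phase or shared members, where 468 of 10982 genes were higher.

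Rrm2 stood at 28.0 CPM in T cells and 10.9 in ILC3s of replicate 1, and at 16.5 and 0.884 CPM in replicate 2. Its log2 fold change was 2.53 (SE 0.56, adjusted p = 0.00068, edgeR's quasi-likelihood test). Ube2c, the ubiquitin-conjugating enzyme of the anaphase-promoting complex, stood at 52.9 against 21.0 CPM and 18.2 against 3.53 CPM (log2 fold change 1.89). Ccna2, cyclin A2, stood at 20.2 against 9.25 CPM and 7.39 against 0.884 CPM (log2 fold change 1.99). Ccnb2, cyclin B2, had 20.2 against 5.89 CPM and 5.67 against 1.47 CPM (log2 fold change 1.85). T cells were the higher class in each of these pairs, and the ILC3 value of replicate 2 was the lowest.

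Hmgb2, a chromatin protein of the high mobility group, stood at 780 and 765 CPM in T cells and 366 and 309 in ILC3s. Its log2 fold change was 1.27 (SE 0.29, adjusted p = 0.00096, edgeR's quasi-likelihood test), and the classes did not overlap. Mki67, the proliferation antigen Ki-67, stood at 109 against 81.6 CPM and 55.5 against 18.9 CPM (log2 fold change 1.10). Top2a, topoisomerase 2 alpha, had 156 against 149 CPM and 98.3 against 35.3 CPM (log2 fold change 0.93). For both genes the difference was mainly in replicate 2. Pcna, the sliding clamp of DNA polymerase, had 277 against 241 CPM and 239 against 198 CPM and was not called (log2 fold change 0.31, SE 0.25). Mcm5, a helicase subunit, and Stmn1, which destabilises microtubules, were not called either, with log2 fold changes of 0.55 and -0.45.

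Plasma cells had higher levels of G2/M members than ILC3s. Of the 28 members tested, 13 were higher and 0 lower, where 9.32% of all genes were higher, and 15 had an unadjusted p under 0.05. DESeq2 called 10 higher and 0 lower, where it called 974 of 9353 genes higher. The 13 were 10 of 13 G2/M members, 2 of 11 S phase members (Rrm2 and Pclaf) and Cks1b. The median log2 fold change was 1.59 over the members tested and -0.25 over all genes. These calls rested on replicate 1: in the 17 plasma cells of replicate 2, 6 of the 13 members had 0 UMIs and 7 were higher by CPM, where 1 UMI is 8.01 CPM.

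Rrm2 stood at 43.0 CPM in plasma cells and 10.9 in ILC3s of replicate 1. In replicate 2 it stood at 16.02 (2 UMIs) and 0.884 CPM, and the log2 fold change was 3.71 (SE 0.70, adjusted p = 9.1e-05, edgeR's quasi-likelihood test). Mki67 stood at 201 against 81.6 CPM and 48.0 against 18.9 CPM (log2 fold change 2.43 with an SE of 0.35 and adjusted p = 1.1e-06). Ube2c had 74.2 against 21.0 CPM and 8.01 against 3.53 CPM (log2 fold change 2.93). These 3 genes were higher in plasma cells of both replicates. Ccna2 and Cdk1 had 50.8 and 43.0 CPM in plasma cells of replicate 1, against 9.25 CPM each in ILC3s, and 0 UMIs in plasma cells of replicate 2. Their log2 fold changes were 3.63 and 2.87.

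Other members did not pass the test in plasma cells. Top2a had 129 against 149 CPM in replicate 1 and 0 against 35.3 in replicate 2 (log2 fold change 0.77, SE 0.42). Pcna had 87.9 against 241 CPM and 72.1 against 198 CPM (log2 fold change -0.50, SE 0.32), and Mcm5, Stmn1 and Hmgb2 had log2 fold changes of -1.15, -0.33 and 0.03. The CPM here is per all UMIs, and the fit rescales for the immunoglobulin transcripts.

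By the level gate, with 348 and 19 plasma cells and 10982 genes, 24 of 34 members tested were higher, where 16% of all genes were higher. DESeq2 called 10 of 34, where it called 1138 of 10982 genes higher. The 24 included 18 of 18 G2/M members and 5 of 12 S phase members. Cdc20, which was then tested, stood at 57.8 against 8.15 CPM in replicate 1 and at 0 against 3.86 CPM in replicate 2. Mki67 stood at 349 against 111 CPM and 39.1 against 21.2 CPM. Of the 24 members called, 15 had 0 UMIs in plasma cells of replicate 2 and 7 were higher there, so the calls again rested on replicate 1.

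Stromal cells had lower levels than ILC3s. Of the 28 members tested, 15 were lower and 0 higher, where 20.8% of all genes were lower, and 18 had an unadjusted p under 0.05. DESeq2 called 11 lower and 0 higher, where it called 1285 of 9353 genes lower. The median log2 fold change was -1.37 over the members tested and -0.00 over all genes. The 15 were 6 of 13 G2/M members, 6 of 11 S phase members and 3 of the 4 shared members. Each was lower by CPM in both replicates, but 1 had 0 stromal UMIs in replicate 1 and 5 had 0 in replicate 2. For members with few UMIs in ILC3s, such a 0 shows little. DESeq2 on the level gate called 19 of 34 members lower, where 1684 of 10982 genes were lower. With edgeR on the level gate 30 of 34 members tested were lower, where 20.6% of all genes were lower. Of these 30, 6 had 0 stromal UMIs in replicate 1 and 16 in replicate 2.

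Ccna2 had no UMI in stromal cells of either replicate, against 9.25 and 0.884 CPM in ILC3s. Mcm5 stood at 1.503 against 36.2 CPM and 2.49 against 28.0 CPM (log2 fold change -3.79 with an SE of 0.60 and adjusted p = 1.6e-06, edgeR's quasi-likelihood test). Tpx2, a spindle assembly factor, and Cenpf, a centromere protein, had 2 and 1 UMIs in stromal cells of replicate 1 and 0 in replicate 2. In ILC3s they had 19 and 11 UMIs in replicate 1 and 17 and 7 in replicate 2. Top2a stood at 15.5 against 149 CPM and 1.25 against 35.3 CPM (log2 fold change -2.79), and Stmn1 at 11.5 against 115 CPM and 11.2 against 46.0 CPM (log2 fold change -2.42). Mki67, Pcna and Hmgb2 had log2 fold changes of -1.30, -0.95 and -1.40 and were called. Pcna and Hmgb2 were still seen in stromal cells, at 92.2 and 81.0 CPM and at 88.2 and 110 CPM.

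In myeloid cells Mki67 was the only member called by the marker gate, where 9.29% of all genes were higher. It stood at 282 against 81.6 CPM in replicate 1 and at 148 against 18.9 CPM in replicate 2 (log2 fold change 2.38 with an SE of 0.37 and adjusted p = 4.4e-06, edgeR's quasi-likelihood test). Both myeloid values lay above both ILC3 values. The median log2 fold change over the members tested was -0.31, or -0.05 with the 3 members that had no UMI in myeloid cells set at the bound that 3 UMIs allow, against -0.24 over all genes. Top2a, Pcna, Mcm5, Stmn1 and Hmgb2 were not called, with log2 fold changes of -0.97, -0.08, -1.07, -0.37 and -0.75. DESeq2 called 2 members higher, where it called 992 of 9353 genes higher. By the level gate 4 of 34 members tested were higher, Rrm2, Mki67, Ube2c and Cks1b, which is near the 11.3% of all genes that were higher. By CPM all 4 were higher in replicate 1 and 3 of them in replicate 2.

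**Figure D4:**
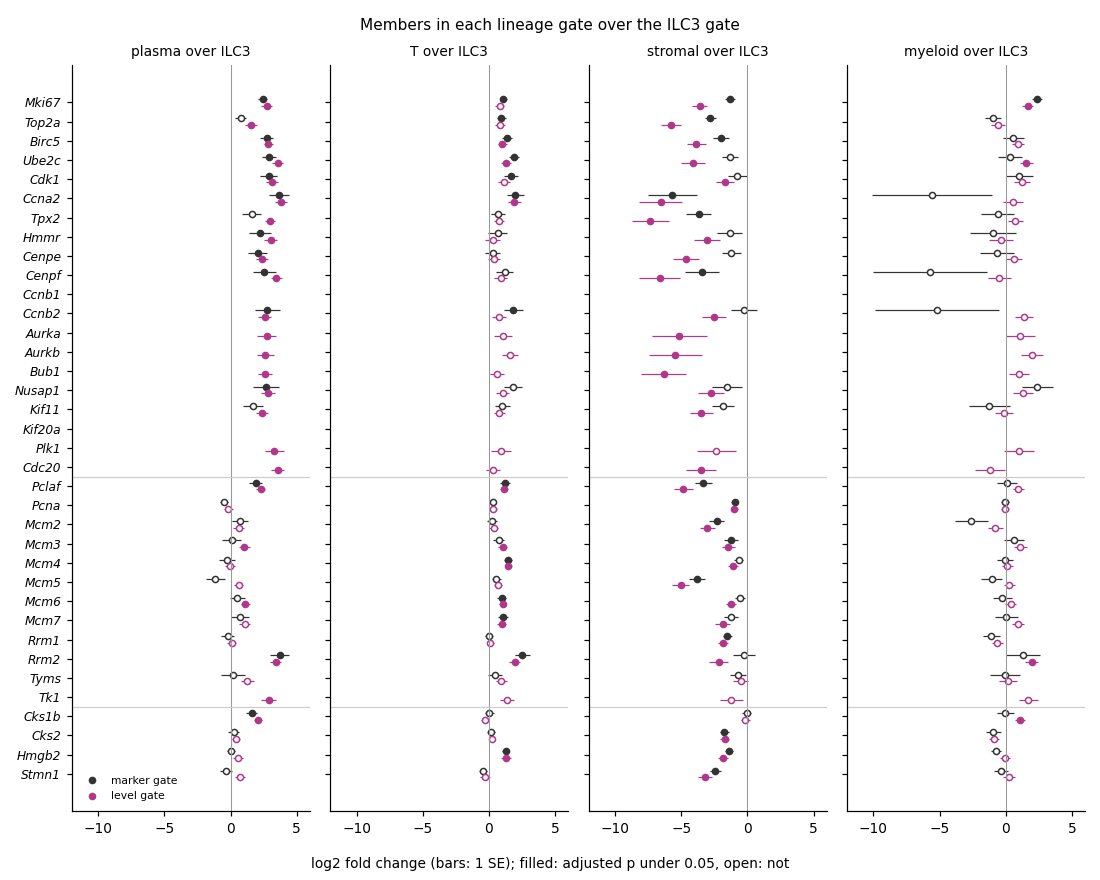
Log2 fold change over ILC3s (horizontal axis) of the members tested (vertical axis) in plasma, T, stromal and myeloid cells by the marker gate (black) and the level gate (purple), with bars of 1 standard error and filled points for an adjusted p under 0.05; a point of a member with no UMI in the class is a fitted value and no bound. Called members lie to the right of 0 in plasma and T cells, with medians of 1.59 and 0.98 over the members tested by the marker gate, and to the left in stromal cells, with a median of -1.37.

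Between ILC3 subsets, 22 members could be tested over 6305 genes. Pcna was higher in Ncr1-gated than in Ccr6-gated cells, where 2.49% of all genes were higher. It stood at 304 against 216 CPM in replicate 1 and 234 against 114 CPM in replicate 2 (log2 fold change 0.84 with an SE of 0.23 and adjusted p = 0.041, edgeR's quasi-likelihood test). The level gate did not call it (adjusted p = 0.07 by the same test, 3.27% of all genes higher). It called Rrm1, the large subunit of ribonucleotide reductase, lower in Ncr1-gated cells, where 3.71% of all genes were lower. Mki67 had 184 against 233 CPM and 2.15 against 15.9 CPM (log2 fold change -0.43), and Top2a, Mcm5, Stmn1 and Hmgb2 were also not called, with log2 fold changes of -0.30, -0.39, -1.47 and 0.33. The median over the members tested was -0.19 and over all genes -0.01.

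The cycling cells were then compared with the other cells of their class, in the classes with at least 10 cycling cells in each replicate, which were ILC3s and T cells. The 20 G2/M members had chosen the cycling cells and were not tested. The other 16 members are further genes of the same cells, which were deeper than the rest. The median depth of cycling ILC3s was 5014 against 3377 UMIs in replicate 1 and 4019.5 against 2793.5 in replicate 2. That of cycling T cells was 4864 against 2626 and 2984 against 2089. Cycling ILC3s held 1.94 plasma marker UMIs per 10000 against 1.91 in the other ILC3s of replicate 1, and 1.36 against 1.26 in replicate 2. With the level gate these values were 4.38 against 2.01 and 1.39 against 1.29. Cycling T cells held 0.994 against 1.44 in replicate 1 and 1.24 against 1.003 in replicate 2 by the marker gate. The part of these markers in the results below was not tested, and that of depth was not tested beyond the scaling of the fit.

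In both classes 13 of the 16 S phase and shared members were higher in cycling cells, where 1.85% of all 6594 genes were higher in ILC3s and 2.84% in T cells. The median log2 fold change of the 16 was 2.62 in ILC3s and 1.96 in T cells, against -0.06 and -0.09 over all genes. Pclaf, which encodes a factor that binds PCNA, stood in ILC3s at 347 CPM in cycling and 4.58 CPM in other cells of replicate 1, and at 287 and 3.61 CPM in replicate 2. Its log2 fold change was 6.17 (SE 0.46, adjusted p = 4.4e-10, edgeR's quasi-likelihood test). In T cells it stood at 328 against 11.1 CPM and 333 against 2.37 CPM (log2 fold change 6.32). Cycling cells held 87.2% and 61.3% of the Pclaf UMIs in ILC3s and 84.6% and 90.5% in T cells.

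Stmn1 had 970.2 against 38.5 CPM and 1179 against 23.4 CPM in ILC3s (log2 fold change 5.14), and 338 against 12.9 CPM and 472 against 10.01 CPM in T cells (log2 fold change 5.22). Hmgb2 had 1501 against 264 CPM and 1300.5 against 289 CPM in ILC3s (log2 fold change 2.27) and 1989 against 555 CPM and 2077 against 676 CPM in T cells (log2 fold change 1.62). Both genes were far above the other cells of their class in each replicate, and Hmgb2 had the higher level in cells that were not cycling. Rrm2 had log2 fold changes of 5.46 in ILC3s and 3.84 in T cells. Tyms, thymidylate synthase, was called in ILC3s at 3.30, and Cks1b, a subunit that binds cyclin-dependent kinases, was called in T cells at 4.79. Mcm5 was called in both classes, at 2.32 and 2.51.

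Pcna stood apart from Pclaf. In ILC3s it had 357 against 231 CPM and 560 against 191 CPM and was called (log2 fold change 1.00 with an SE of 0.25 and adjusted p = 0.021, edgeR's quasi-likelihood test). In T cells it had 378 against 258 CPM and 348 against 232 CPM and was not called (log2 fold change 0.48 with an SE of 0.21 and adjusted p = 0.24, edgeR's quasi-likelihood test). Cycling cells held 12.2% and 5.51% of the Pcna UMIs of ILC3s and 21.3% and 9.28% of those of T cells, so most of its UMIs lay in cells not called cycling. In ILC3s Cks2, Mcm2 and Tk1 were not called, with log2 fold changes of 0.59, 1.75 and 3.77, and in T cells Mcm2 and Mcm3 were not, at 1.12 and 1.19. Under the level gate 15 of 16 were higher in each class, where 3.51% and 3.38% of all genes were higher.

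The share of a member's UMIs that lay in cycling cells varied among members. For the S phase members its median was 39.2% and 11.4% in ILC3s, 48.2% and 20.3% in T cells and 61.8% and 41.7% in plasma cells. For the G2/M members, which define these cells, it was 85.7% and 50% in ILC3s, 91.99% and 80.9% in T cells and 100% in plasma cells of both replicates. The definition sets the second series of values, so only the spread among the S phase and shared members is a measurement. That spread ran in ILC3s of replicate 2 from 2.48% for Cks2 to 61.3% for Pclaf.

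**Figure D5:**
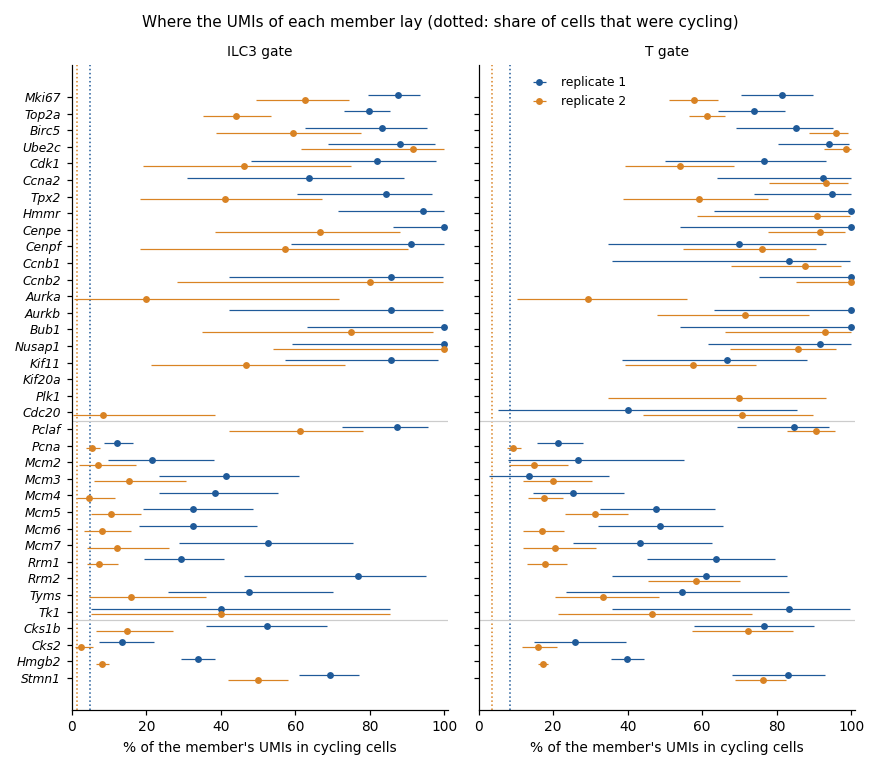
Percent of each member's UMIs that lay in cycling cells (horizontal axis) for members with 5 or more UMIs (vertical axis, by phase) in ILC3s and T cells by the marker gate; points are the replicates, bars the exact 95% intervals, and dotted lines the share of cells that were cycling. Pclaf and Stmn1 lie near the G2/M members, at 87.2% and 69.3% in ILC3s of replicate 1, while Pcna and Cks2 lie low at 12.2% and 13.5%.

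Cells with 3 or more S phase UMIs were common among cycling cells. They were 68.8% of 16 cycling ILC3s of replicate 1 (interval 41.3 to 89.0) against 19.6% of the others, and 62.5% against 11.4% in replicate 2. In T cells they were 55.6% against 20.2% and 39.1% against 9.83%. Non-cycling stromal cells had 8.87% and 6.88%, so part of the share in other classes lies at the level seen in stromal cells not called cycling. Used in place of the G2/M members, the S phase members called 21.9% and 12.1% of ILC3s and 23.2% and 10.9% of T cells cycling, and T cells then no longer stood above ILC3s in replicate 2. Without Pcna these shares were 10.2% and 4.37% for ILC3s and 11.8% and 4.46% for T cells, against 2.08% and 1.25% for stromal cells.

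Plasma cells had 1 cycling cell in replicate 2 and were not fitted. In replicate 1, by the level gate, Pclaf stood at 347 CPM in the 90 cycling plasma cells and 1.48 CPM in the 258 others, Stmn1 at 263 and 3.45 CPM, Hmgb2 at 930 and 56.2 CPM, and Mcm5 at 97.3 and 2.96 CPM. Cycling plasma cells held 71.9% of the Pcna UMIs and 99.2% of the Pclaf UMIs of that class. They also differed in their antibody transcripts, with a median immunoglobulin share of 29.9% against 59.9% of UMIs in the other plasma cells. By the marker gate the shares were 29.4% and 59.1%, and the 1 cycling plasma cell of replicate 2 had 28.5% against a median of 57.5%. These values are from the cells of 1 replicate and carry no test.

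Of 83 other cell cycle genes, 57 could be tested in cycling cells. In ILC3s 27 were higher and 1 lower, where 0.364% of all genes were lower, and in T cells 29 were higher. They included 19 and 20 of the 24 genes of the mitosis list. Cdca8, a subunit of the chromosomal passenger complex, had log2 fold changes of 6.26 in ILC3s and 5.13 in T cells. Cdca3, a trigger of mitotic entry, had 6.43 and 5.77. Nuf2, a kinetochore protein, had 5 and 1 UMIs in cycling ILC3s and 1 and 0 in the others, and 5 and 11 UMIs in cycling T cells and 0 in the others. Kif22, a mitotic kinesin, had 6 and 2 UMIs in cycling ILC3s and 0 in the others. Ccnd2, cyclin D2 of G1 phase, was the gene that was lower, at 194 against 554 CPM and 484 against 607 CPM in ILC3s (log2 fold change -0.96, adjusted p = 0.037, edgeR's quasi-likelihood test). This call was lost with DESeq2, without the replicate block, with 2 or more UMIs and by the level gate.

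Further genes outside the lists were also called. Spc24, a kinetochore gene, had log2 fold changes of 5.54 in ILC3s and 5.39 in T cells. Prr11 had 5.78 and 4.97. Nek2, a centrosomal kinase, had 7 and 5 UMIs in cycling ILC3s, 3 and 7 in cycling T cells, and 0 in the other cells of both classes. Genes could also be lower in cycling cells, which 0.364% of all genes were in ILC3s and 1.8% in T cells. Slc16a10, an amino acid transporter, had in ILC3s 61.3 against 322 CPM and 60.5 against 177 CPM (log2 fold change -2.15). Dnajb9, a chaperone of the endoplasmic reticulum, had 71.5 against 271 CPM and 45.4 against 209 CPM (log2 fold change -2.08). In cycling T cells Il10, which encodes interleukin 10, had 0 UMIs in both replicates, in sums of 100566 and 258548 UMIs. The other T cells had 15 and 107 Il10 UMIs in larger sums of 542057 and 3798485 UMIs. The small cycling sums limit what these 0 counts show, above all in replicate 1. Ecm1 had 9.94 against 88.6 CPM and 11.6 against 65.3 CPM (log2 fold change -2.77).

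Among the lineages, other cell cycle genes differed in both directions, with 47 of the 83 tested. Plasma cells had 7 higher and 6 lower than ILC3s, where 9.32% and 14.1% of all genes were higher and lower. Cdkn1a, the kinase inhibitor p21, stood at 5.86 against 640 CPM and 24.03 against 493 CPM (log2 fold change -4.92 with an SE of 0.52 and adjusted p = 1.8e-09, edgeR's quasi-likelihood test). Rbl2, the retinoblastoma family protein p130, had 21.5 against 215 CPM and 24.03 against 246 CPM (log2 fold change -2.34), and Ccnd3, cyclin D3, had 39.1 against 235 CPM and 72.1 against 295 CPM (log2 fold change -1.47). Rb1 was lower by the same test at -1.18. Each of these 4 genes was lower in plasma cells of both replicates. Cdc25a, a phosphatase that activates cyclin-dependent kinases, was higher, at 37.1 against 6.73 CPM and 40.0 against 7.36 CPM (log2 fold change 3.11). Fen1, a nuclease of replication, was higher at 1.84. E2f2 and Cdkn2c were called higher with 17 and 14 UMIs in plasma cells of replicate 1 and 0 in replicate 2.

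T cells had 10 of these genes higher and 4 lower than ILC3s, where 8.52% and 12% of all genes were higher and lower. Rpa2, a subunit of the protein that coats single-stranded DNA, stood at 85.6 against 5.04 CPM and 59.2 against 10.3 CPM (log2 fold change 3.07 with an SE of 0.37 and adjusted p = 2.4e-08, edgeR's quasi-likelihood test). Ndc80, a kinetochore gene, had a log2 fold change of 2.30, and Gmnn, the replication licensing inhibitor geminin, had 1.63. Cdk6, a kinase of G1 phase, had 63.8 against 45.4 CPM and 103 against 44.8 CPM (log2 fold change 1.04). Cdkn1c, the inhibitor p57, was lower, at 4.67 against 15.1 CPM and 1.73 against 12.1 CPM (log2 fold change -2.40). Rbl2 was lower at -0.95 and Kif23, a kinesin of cytokinesis, at -1.05. Ccnd1 was listed lower with 0 UMIs in T cells, and it had 0 and 9 UMIs in ILC3s.

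Stromal cells had 1 of these genes higher and 18 lower, where 25.5% and 20.8% of all genes were higher and lower. The higher gene was Ccnd1, cyclin D1, with 41.6 and 51.1 CPM, against 0 and 2.65 CPM in ILC3s. In myeloid cells, too, Ccnd1 was the higher gene, at 73.3 and 39.4 CPM, and 6 genes were lower, where 9.99% of all genes were lower. Rbl2 was lower in both classes, with log2 fold changes of -1.84 in stromal and -3.80 in myeloid cells. The 4 contrasts share the ILC3 sums, so a gene at a high level in ILC3s is lower in more than 1 of them. Between the ILC3 subsets Ccnd3 was higher in Ncr1-gated than in Ccr6-gated cells, at 343 against 58.1 CPM and 378 against 216 CPM (log2 fold change 1.13 with an SE of 0.24 and adjusted p = 0.0066, edgeR's quasi-likelihood test).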

How the data were processed

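Single-cell RNA was counted per cell and gene on the BD Rhapsody system. The values used are the deposited counts of molecules after error correction of their identifiers, whole numbers and not normalised; per the file headers they were made with version 1.8 of the BD pipeline and GENCODE release 19 of the mouse annotation. The deposited sample tag of each cell, called by that pipeline, is a name and not a number. HISAT2 2.0.5, Bowtie2 and the build GRCm38.p6 are named, without a role, in the submitters' processing notes. Of the tagged cells, 2077 and 4532 carried the tags of replicates 1 and 2, with 11939862 and 12141164 UMIs; 6 other sample tags, multiplets and undetermined cells were not used. Genes in only 1 table held 0.0343% and 0.0105% of the UMIs and were left out.

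Cells under 300 genes or over 25% mitochondrial UMIs were dropped. Scrublet, in scanpy 1.11.5, then took out 39 (2.01%) and 6 (0.143%) of the rest, so it marked few cells of replicate 2, where doublets may remain. Gates counted marker genes with a UMI. Python 3.11.15 with numpy 2.4.6, scipy 1.17.1 and pandas 2.3.3 and R 4.3.3 with edgeR 4.0.16 (TMM scaling, filterByExpr, quasi-likelihood test, two-sided, adjusted threshold 0.05) were used on UMIs summed per replicate and class, and DESeq2 1.42.0 was an alternative. The fits were tried on simulated data with a fixed spread, no replicate effect and changes only in genes at higher levels. That trial does not cover members with few UMIs. The replicate was a block because the classes of a replicate share a capture, and the differences between replicates were correlated over 1567 genes in every pair of lineages (Pearson r 0.121 to 0.512). In each contrast the members named are the 4 called with the largest change in each direction and Mki67, Top2a, Ccnb1, Cdc20, Pcna, Mcm5, Stmn1 and Hmgb2; other cell cycle genes are named from the 6 with the largest change, and genes outside the lists from the 10. The members, gates and lists were chosen with earlier results of these data known. Alternatives covered the UMI threshold, the members counted, depth, filters, gates, scaling, the block and each replicate left out. Some items are not reported here.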

Additional observations from a re-analysis of the deposited data

Results flagged for a closer look

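Racgap1 differed between ILC3s and T cells in how far cycling cells stood above the others, by the interaction term of edgeR's quasi-likelihood test with Benjamini-Hochberg adjustment over all 6594 genes. This regulator of cytokinesis, which is no member, had 184 CPM in cycling and 5.497 CPM in other ILC3s of replicate 1 and 212 and 1.502 CPM in replicate 2, a log2 fold change of 6.04 (SE 0.57). In T cells its log2 fold change was 1.95 (SE 0.44). The difference, T cells minus ILC3s, was -4.09 (SE 0.69, adjusted p = 0.0176). By the level gate it was -4.23 (adjusted p = 0.00128), and Lmnb1, a lamin gene, also differed there at -1.93 (adjusted p = 0.00234). In this test 0 of 6594 genes were called without the replicate block and 0 of 6739 with 2 or more UMIs, and DESeq2 called 1 gene. Cycling ILC3s held 18 and 14 Racgap1 UMIs, so the ILC3 value rests on few molecules.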

How the results depend on the processing

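Depth limits the shares: a cycling call needs 3 UMIs, ILC3s and T cells had medians of 2107 to 3425 UMIs, and plasma cells of replicate 2 were 17 cells. With 2 or more UMIs the shares were 8.41% and 3.77% (ILC3s), 14.7% and 6.66% (T cells) and 5.06% (stromal cells, replicate 1). With 5 or more they were 2.40% and 0.600% and 4.74% and 1.18% for ILC3s and T cells. With the 24 G2/M and shared members they were 27.0% and 16.9% (ILC3s), 41.7% and 29.4% (T cells), 30.1% (plasma cells, replicate 1), 11.6% and 7.5% (stromal cells) and 28.0% (myeloid cells, replicate 2). With the S phase members they were 21.9% and 12.1% (ILC3s), 23.2% and 10.9% (T cells) and 9.23% and 6.88% (stromal cells). Thinned to 1500 UMIs they were 2.13% and 0.650% (ILC3s), 3.40% and 2.13% (T cells), 0% (plasma cells, replicate 2) and 3.03% (myeloid cells, replicate 1). Thinned to 1000 UMIs without immunoglobulin genes they were 2.12% and 0.439%, 3.32% and 1.30%, 0% and 3.03% in the same order. Stromal cells of replicate 1 had 7.22% with no cell filter and 0.457% by the level gate, and myeloid cells of replicate 1 had 6.06% without Mki67.

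Members higher in plasma cells numbered 22 with 1 more marker per gate, where 1291 of 10557 genes were higher. They numbered 24 by the level gate, and 7 to 13 had the same direction with either replicate left out. Members higher in T cells numbered 4 with DESeq2 and 3 without the replicate block. Members lower in stromal cells numbered 30 by the level gate. Those higher in myeloid cells numbered 2 with DESeq2, 6 with 1 more marker, where 1215 of 10557 genes were higher, and 4 by the level gate. Between Ncr1-gated and Ccr6-gated cells, 0 were higher with DESeq2, without the block and by the level gate, and 1 was lower with no low-count filter and by the level gate. Other cell cycle genes lower in cycling ILC3s numbered 0 with DESeq2, without the block, with 2 or more UMIs and by the level gate. Those lower in cycling T cells numbered 1 with no low-count filter, 2 with 5 or more UMIs and 1 by the level gate.

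With both replicates kept, changes of direction touched only members that were not called. In plasma cells Mcm5 was 0.85 and Stmn1 0.19 with 1 more marker, 0.62 and 0.69 by the level gate, and Hmgb2 was -0.069 with no low-count filter. In myeloid cells Top2a was 0.026, Pcna 0.35, Mcm5 0.94 and Hmgb2 0.52 with 1 more marker. By DESeq2 Pcna was 0.10 and Stmn1 0.067, by the level gate Mcm5 was 0.25 and Stmn1 0.23, and without immunoglobulin genes Pcna was 0.011. Top2a was 0.033 between the ILC3 subsets with 1 more marker. The median of all genes shifted with DESeq2's scaling from -0.25 to 0.00 in plasma cells, from -0.24 to 0.01 in myeloid cells and from -0.00 to 0.17 in stromal cells. The cause of these differences was not tested.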
